A study of Mus musculus with 133 samples.

Results

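The genes described here are 9 genes of B cells and of antibody secretion, Cd79a, Cd79b, Ms4a1, Cd22, Blk, Pou2af1, Mzb1, Jchain and Igha, out of 19938 genes that the array measured with a probeset of their own. They were taken as a list by name, each read with the probeset of highest mean that belongs to that gene only, and all 9 were found. RNA was measured on Affymetrix Mouse Gene 1.0 ST arrays in whole mammary tumours from female offspring of Diversity Outbred females crossed with males of the MMTV-PyMT line. The labels give mammary tumour as the tissue of every array, and all arrays form 1 group. The study reports no therapy for the mice. All tumours carry the transgene, in which the MMTV promoter drives the polyoma middle T antigen in mammary epithelium. Tumours grew until the animal was close to its humane endpoint, with no age given. The dams were outbred, so that genotypes differed from animal to animal. Titles of the arrays take 2 forms, a running number or a name, and of the tumours used 48 had numbered and 79 named titles. The question asked was whether the genes of B cells (Cd79a, Ms4a1) and those of plasma cells (Jchain, Igha) vary together or separately among these tumours.

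B cells recognise antigen through the B cell receptor, a surface immunoglobulin that signals through a pair of partner chains. After activation some of them mature into plasma cells, which lose most of the receptor apparatus and turn to the secretion of antibody. In mucosal and glandular tissue, the mammary gland included, many plasma cells secrete IgA, which the J chain joins into polymers so that the epithelium can carry it into the secretion. The tumours are bulk tissue, so that fewer cells of a type and less RNA per cell cannot be told apart.

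The arrays carried the epithelial markers of the labelled tissue. The keratin gene Krt8 averaged 12.1 on the log2 scale over these tumours, in the top range of the array, and the adhesion gene Epcam averaged 11.2. Array medians averaged 6.18 in numbered titles and 5.96 in named titles, so that values were compared after centring within title series. The 4 arrays of lowest mean correlation with the others were tumours 14095 (numbered) and 14094, 14312 and 14320 (named), and tumour 14094 enters many of the results below.

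Most tumours lay near the bottom of the array's range for Cd79a, Ms4a1 and Jchain, and a few lay far above for all 9 genes. The median level of Cd79a over all tumours was above that of only 8.08% of genes, that of Ms4a1 above 8.33% and that of Jchain above 10.9%. For the other 6 genes the share lay between 28.3% (Igha) and 43.7% (Pou2af1). These shares place each probeset in the range of the array, where little signal stands over background at the bottom, and give no order of the genes, since probes differ in how well they bind. The spread of the centred levels was wide all the same. Jchain had an SD of 1.15 log2 units, larger than that of 99.6% of genes, and Igha one of 1.11. Cd79a followed with 0.78, Ms4a1 with 0.69, Cd79b with 0.67 and Pou2af1 with 0.57. Cd22, Mzb1 and Blk had SDs of 0.38, 0.38 and 0.36, against a median of 0.22 over all genes.

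Cd79a and Cd79b encode the signalling chains of the B cell receptor. Cd79a ranged over 3.78, 4.06 and 4.94 log2 units (lowest, median and highest) in numbered titles and over 3.40, 3.80 and 9.06 in named titles. Cd79b ranged over 5.68, 6.03 and 6.99 in numbered titles and over 5.44, 5.98 and 10.7 in named titles. Outside the high tumours Cd79a lay somewhat higher in numbered titles, with quartiles of 4.00 and 4.14 in numbered and 3.71 and 3.92 in named titles. Every tumour more than 1 log2 unit above its series median had a named title (6 tumours for Cd79a, 5 for Cd79b). The highest Cd79a level, in tumour 14094, was 38.3-fold above the median of named titles.

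Ms4a1 encodes CD20, a surface protein of mature B cells that is lost in plasma cells. It ranged over 3.89, 4.03 and 4.23 log2 units in numbered titles and over 3.66, 3.86 and 8.71 in named titles, with 6 tumours more than 1 unit above the median. Cd22 encodes an inhibitory coreceptor, and Blk a Src family kinase of B cells. Cd22 ranged over 5.26, 5.61 and 5.87 in numbered titles and over 4.88, 5.32 and 8.11 in named titles. Blk ranged over 5.08, 5.43 and 5.90 in numbered titles and over 4.99, 5.31 and 8.07 in named titles. Tumour 14094 was highest for Cd79a, Cd79b, Ms4a1, Cd22 and Blk, and tumour 14322 came after it for all of these but Blk.

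Promoter sequences from RefSeq (build GRCm38.p6) were at hand for 4 of the 9 genes, and 3 are shown because Cd79a and Cd22 moved together in these tumours while Jchain also varied apart from them. Each run is the 250 bases before the annotated start, read 5′ to 3′ on the gene's strand, with matches to the motifs below in capitals on either strand. The windows lie at chr7:24897247-24897496 (plus strand) for Cd79a, chr7:30879029-30879278 (minus strand) for Cd22 and chr5:88527898-88528147 (minus strand) for Jchain.
Cd79a: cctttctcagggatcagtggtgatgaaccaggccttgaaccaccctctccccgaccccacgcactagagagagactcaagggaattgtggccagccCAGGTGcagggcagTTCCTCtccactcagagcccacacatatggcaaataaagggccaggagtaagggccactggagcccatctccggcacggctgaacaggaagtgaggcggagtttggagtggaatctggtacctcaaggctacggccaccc
Cd22: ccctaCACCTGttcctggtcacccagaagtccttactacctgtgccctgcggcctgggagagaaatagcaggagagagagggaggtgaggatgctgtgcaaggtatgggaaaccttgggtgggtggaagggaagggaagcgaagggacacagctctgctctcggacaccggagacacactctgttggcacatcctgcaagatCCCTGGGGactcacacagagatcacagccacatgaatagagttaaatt
Jchain: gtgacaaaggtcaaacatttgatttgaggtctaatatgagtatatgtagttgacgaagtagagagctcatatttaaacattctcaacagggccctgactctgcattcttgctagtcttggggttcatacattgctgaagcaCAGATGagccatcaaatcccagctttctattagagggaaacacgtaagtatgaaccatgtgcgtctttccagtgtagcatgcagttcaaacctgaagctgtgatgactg
The E box CAGNTG was found once in each of these 3 windows, and in 44.8% of the 32851 promoter windows of the table. The PU.1 core GAGGAA was found once, before Cd79a (23.3% of all windows), and the EBF core CCCNNGGG once, before Cd22 (11.8% of all windows). The octamer ATGCAAAT, which Pou2af1 helps to read, was in none of the 4 windows, that of Pou2af1 included, and in 1.60% of all windows. These matches describe letters and not sites.

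Pou2af1 encodes a coactivator of the octamer-binding factors in B cells and plasma cells. It ranged over 5.84, 6.45 and 8.12 log2 units in numbered titles and over 5.32, 6.11 and 9.14 in named titles. Its high tumours were partly its own. Tumour 14099, named, had a Pou2af1 level of 8.97 and a Jchain level of 3.87, and tumours 14098 and 14024, numbered, had Pou2af1 levels of 8.12 and 7.84 beside Jchain levels of 4.06 and 4.10. Mzb1 encodes a chaperone of the endoplasmic reticulum that serves antibody folding in marginal zone B cells and plasma cells. It ranged over 5.49, 5.87 and 7.03 in numbered titles and over 5.33, 5.75 and 8.24 in named titles. The highest numbered tumour for Mzb1, 14127, was also the highest numbered tumour for Jchain and Igha.

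Jchain encodes the chain that joins IgA or IgM into polymers, and Igha the constant part of the IgA heavy chain. Jchain ranged over 3.68, 4.14 and 10.1 log2 units in numbered titles and over 3.76, 4.09 and 9.76 in named titles. Igha ranged over 4.81, 5.28 and 10.5 in numbered titles and over 4.67, 5.29 and 10.8 in named titles. High levels of these genes therefore occurred in both title series. More than 1 log2 unit above the median, Jchain had 8 numbered and 9 named tumours, and Igha 4 numbered and 10 named tumours. Jchain in tumour 14127 was 61.1-fold above the median of numbered titles, and Igha in tumour 14094 was 44.5-fold above that of named titles. Igha had 2 probesets of its own, which correlated at r = 0.99 over all tumours, and 4 more that it shared with other immunoglobulin genes and that were not used. The sources used here do not say whether the probes lie in the constant part.

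**Figure D1:**
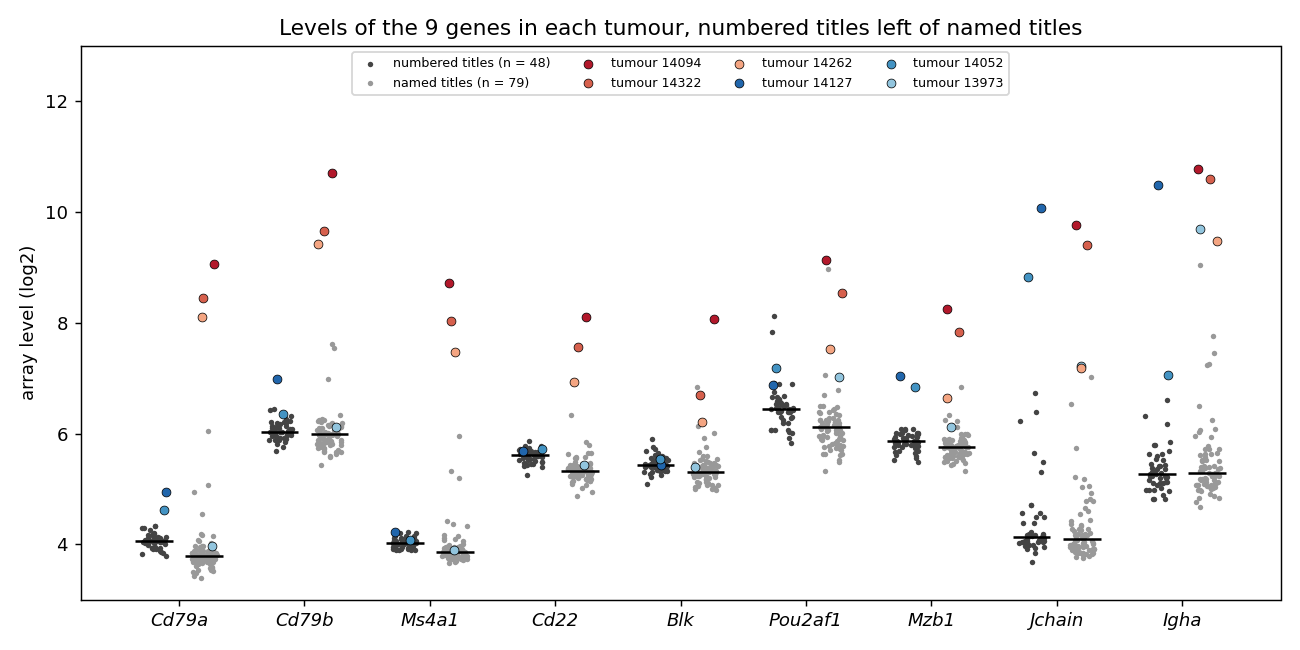
Levels of the 9 genes (log2, vertical axis) in every tumour, numbered titles (48 tumours, dark) left of named titles (79 tumours, grey), with the median of each series as a line and 6 tumours in colour. Cd79a, Ms4a1 and Cd22 are high in named tumours 14094, 14322 and 14262, while Jchain and Igha are high in these and also in numbered tumours such as 14127.

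The level of each gene was first compared between the title series, before centring. Of the 9 genes, 2 passed the test in the direction of numbered titles, where 69.6% of all 19938 genes were called, and none in the direction of named titles, where 5.72% were called. Pou2af1 averaged 6.50 ± 0.42 log2 units in numbered titles and 6.20 ± 0.65 in named titles (SD, n = 48 and 79), a difference of 0.30 (limma adjusted p = 0.00662). Cd22 averaged 5.59 ± 0.11 in numbered titles and 5.42 ± 0.48 in named titles, a difference of 0.17 (limma adjusted p = 0.0195). The median difference over all genes was 0.18, so that neither gene stood apart from the shift of the whole array, and under quantile normalization neither was called. Without the 3 tumours of highest Cd79a, which all have named titles, 5 of the 9 were called higher in numbered titles, where 69.9% of all genes were, Cd79a by 0.24 (limma adjusted p = 0.000115), Pou2af1 by 0.39, Cd22 by 0.26, Mzb1 by 0.12 and Blk by 0.10.

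The tumours with high levels fell into several patterns. Taking more than 1 log2 unit above the series median as high, 5 tumours were high in both Cd79a and Ms4a1, and all 5 had named titles. Both Jchain and Igha were high in 10 tumours, 4 numbered and 6 named. Of these 10, 4 were also high in Cd79a and Ms4a1, and 6 were high in neither. Where either gene of a pair was enough, 15 tumours were high in Jchain or Igha with neither Cd79a nor Ms4a1 high. In the other direction, 1 tumour was high in Cd79a or Ms4a1 with neither Jchain nor Igha high. It was tumour 14312, which is among the 4 arrays of lowest mean correlation. At least 1 of the 4 genes was high in 22 tumours. The limit was the same for all genes, whereas their SDs were 1.15 for Jchain, 1.11 for Igha, 0.78 for Cd79a and 0.69 for Ms4a1. The counts for the 2 kinds of gene are therefore not on an equal footing.

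Tumours 14094, 14322 and 14262 carried both kinds of gene. Tumour 14094 had levels of 9.06 for Cd79a, 8.71 for Ms4a1, 9.76 for Jchain and 10.8 for Igha. Tumour 14322 had 8.45, 8.03, 9.40 and 10.6 for the same genes, and tumour 14262 had 8.11, 7.47, 7.18 and 9.47. These levels lay 3.61 to 5.68 log2 units above the series median, except that of Jchain in tumour 14262, which was 3.09 above it. Tumours 14000 and 14358 held the same genes at lower levels, with Cd79a 2.25 and 1.15 above the median and Igha 1.94 and 2.15 above it. In tumour 14000 Jchain was 0.97 above the median, just under the limit.

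Tumours 14127, 14052, 13973 and 13981 had high Jchain and Igha while Cd79a and Ms4a1 were less than 1 log2 unit above the median. Tumour 14127 had levels of 10.1 for Jchain and 10.5 for Igha beside 4.94 for Cd79a and 4.23 for Ms4a1. Tumour 13973 had 7.21 for Jchain and 9.69 for Igha beside 3.96 for Cd79a and 3.89 for Ms4a1. For both, Ms4a1 was within 0.20 log2 units of the series median. Cd79a in tumour 14127 was 0.88 above it, which made this the highest Cd79a level of numbered titles. In tumour 14052 Jchain stood 4.69 above the median and Igha 1.78, whereas in tumour 13981 Jchain stood 1.64 above it and Igha 3.75.

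Jchain and Igha also parted from each other. Jchain was high without Igha in 7 tumours, and Igha without Jchain in 4. Tumour 14289 had a Jchain level of 7.02, which was 2.93 above the median, and an Igha level of 4.97, at -0.33 relative to its median. In tumour 14273 Jchain was 2.60 above the median and Igha 0.52. In tumour 14289 the mu heavy chain gene Ighm was 0.10 and the kappa variable gene Igkv10-96 0.40 above the median. In tumour 14273 Ighm was 0.40 and Igkv10-96 2.74 above it. Averaged over 8 immunoglobulin variable genes these tumours were alike, at 0.51 (14289) and 0.43 (14273) above the median.

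**Figure D2:**
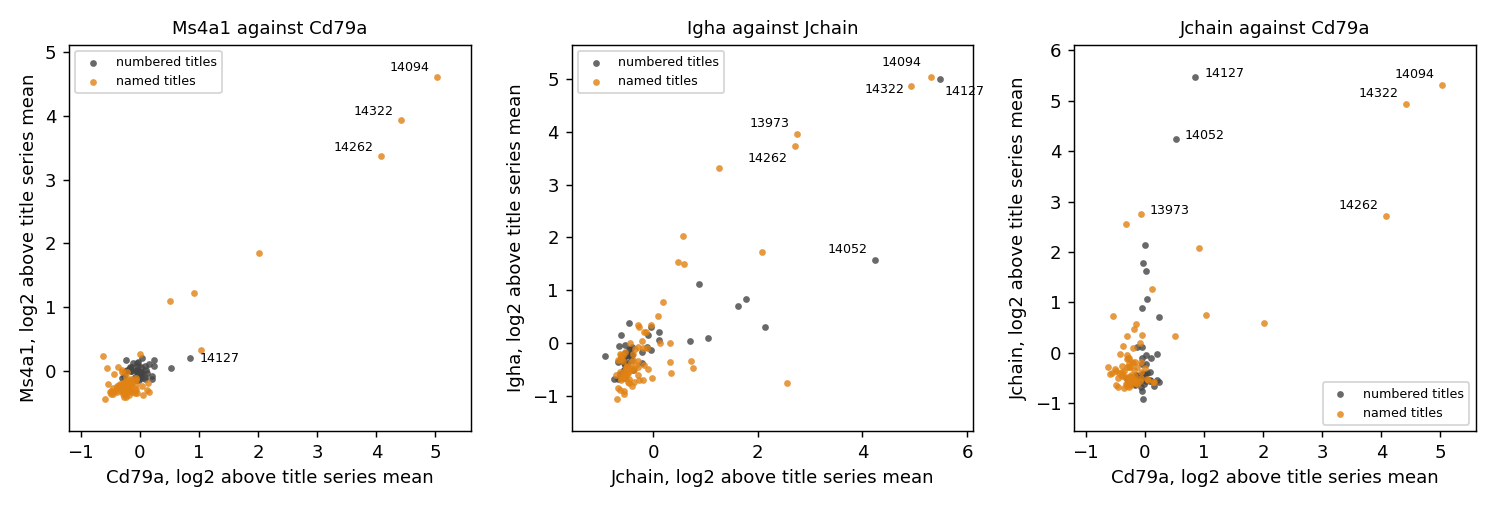
Each point is 1 tumour (48 numbered and 79 named titles), on axes in log2 units above the title series mean, for Ms4a1 against Cd79a (left), Igha against Jchain (middle) and Jchain against Cd79a (right). In the right panel high Jchain levels occur both at high Cd79a (14094, 14322, 14262) and in tumours 14127, 14052 and 13973, whose Cd79a lies at 0.85, 0.52 and -0.07 relative to its mean.

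Markers of other cell types moved with the first of these patterns. Averaged over 16 further B cell genes, tumours 14094, 14322 and 14262 stood 2.87, 2.05 and 1.64 log2 units above the median, and over 12 T and NK cell genes 2.43, 1.66 and 1.44. Over 5 genes of lymph node stroma they stood 3.50, 2.83 and 2.38 above it. In the tumours outside the 10 of highest Cd79a or Jchain, these averages reached at most 0.44, 0.70 and 1.89. Cr2, a complement receptor of B cells and follicular dendritic cells, was 5.11, 4.01 and 2.75 above the median in the same 3 tumours, and at most 0.36 above it in the tumours outside the 10. Ccl19, a chemokine of the T zone of lymph nodes, was 4.35, 3.29 and 2.72 above it, against at most 0.61 there. The other stroma genes were uneven. Cxcl13 was 4.76, 4.02 and 3.15 above it, against at most 3.05, and Chst4 1.65, 0.74 and 0.50, against at most 0.60. Glycam1 was 6.25, 5.92 and 5.52 above it, but up to 6.98 in the tumours outside the 10. Madcam1, at 0.50, 0.18 and -0.002, stayed within their range (up to 0.78). Of the 5 stroma genes Glycam1 had the highest value in each of tumours 14094, 14322 and 14262, and so weighs most in their average. Csn2, a milk protein gene, was at -3.33, 2.13 and 2.47 relative to the median in these tumours. Which cells the Glycam1 RNA came from was not tested. The part of these other cell types in the levels of Cd79a and Ms4a1 was not tested.

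Tumour 14094 stood apart in further ways. Its 12 salivary gland genes averaged 7.16 log2 units above the median, a height reached by tumour 14095 (7.26), in which Jchain was 1.17 above the median and Cd79a 0.27. Relative to the median its proliferation genes averaged -2.17 and its luminal epithelial genes -1.55. In tumour 14322 the salivary, luminal and proliferation averages were -0.16, -0.24 and 0.01, and in tumour 14262 they were -0.27, 0.18 and -0.14.

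In tumours 14127, 14052, 13973 and 13981 the further B cell genes averaged 0.18, 0.21, 0.08 and 0.29 above the median, within the range of the tumours outside the 10. Igkv10-96 was 5.57, 3.22, 2.09 and 1.47 above it, and Ighm 1.27, 0.34, 0.81 and 0.80. Antibody genes other than Jchain and Igha were therefore high in tumour 14127 above all. Ccl28, a chemokine that draws IgA plasma cells into mucosa and mammary gland, was 4.37 above the median in tumour 14127 and 1.79 in tumour 13973, and its value relative to the median was -0.66 in tumour 14052. It was also 5.63 above it in tumour 14094 and 5.12 in tumour 14095, and at -0.76 in tumour 14322.

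**Figure D3:**
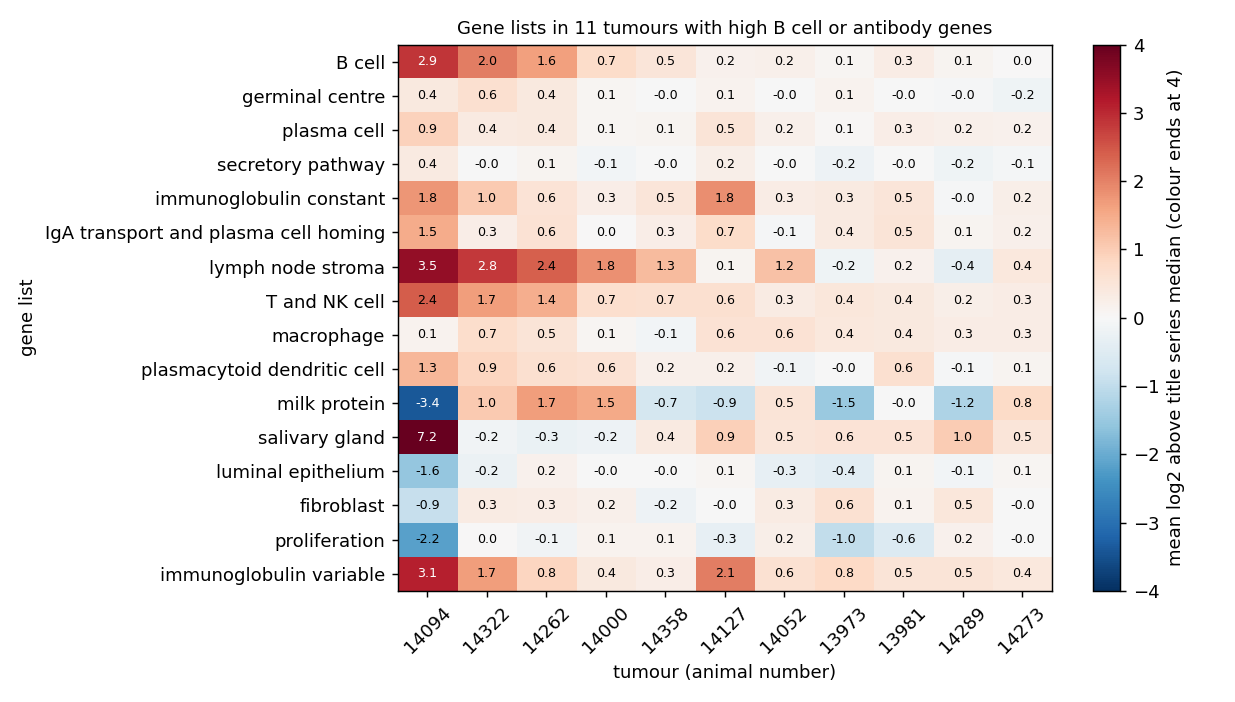
Mean of each gene list (rows) in 11 tumours with high B cell or antibody genes (columns), in log2 units above the title series median, with colours that end at 4. The averages of lymph node stroma and of T and NK cell genes are high with that of B cell genes in tumours 14094, 14322 and 14262. Tumour 14127 is high in immunoglobulin genes with B cell genes at 0.18.

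The genes were then compared in pairs over all tumours, after centring within title series. All 36 pairs correlated positively, with Pearson's r between 0.49 and 0.95, and all 36 passed the permutation test after Benjamini-Hochberg adjustment. Cd79a and Ms4a1 had r = 0.954 (95% interval 0.935 to 0.967, permutation p = 1e-05, adjusted 1.33e-05) and Spearman's rho = 0.525 (permutation p = 0.00027, adjusted 0.000423). Jchain and Igha had r = 0.849 (0.791 to 0.891, permutation p = 1e-05, adjusted 1.33e-05) and rho = 0.573 (permutation p = 1e-05, adjusted 2.77e-05). The value 1e-05 is the smallest that 100000 permutations can give. Between the 2 kinds of gene, Cd79a and Jchain had r = 0.681 (0.574 to 0.764, permutation p = 1e-05, adjusted 1.33e-05) and rho = 0.204 (permutation p = 0.0184, adjusted 0.0207). Ms4a1 and Igha had r = 0.665 (0.555 to 0.752, permutation p = 1e-05, adjusted 1.33e-05) and rho = 0.387 (permutation p = 0.00044, adjusted 0.000587). Within the title series, rho for Cd79a and Ms4a1 was lower, at 0.0595 in numbered and 0.276 in named titles. It was 0.262 and 0.292 for Ms4a1 and Igha, 0.304 and 0.228 for Cd79a and Jchain, and 0.695 and 0.571 for Jchain and Igha. High named tumours raise the series means used for centring, which shifts ranks between the series in rho over all tumours. The 5 genes Cd79a, Cd79b, Ms4a1, Cd22 and Blk had a median r of 0.919 among themselves (10 pairs), and of 0.673 with Jchain or Igha (10 pairs).

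These values rested to a large part on the tumours with high levels. Without the 2 tumours farthest from the median, 14094 and 14322, r was 0.882 for Cd79a and Ms4a1 and 0.464 for Cd79a and Jchain. For Jchain and Igha it was 0.771 without 14127 and 14094. Without the 3 tumours of high Cd79a (14094, 14322 and 14262), r was 0.721 for Cd79a and Ms4a1, 0.756 for Jchain and Igha, 0.411 for Cd79a and Jchain and 0.238 for Ms4a1 and Igha. Without 10 tumours whose Cd79a or Jchain lay more than 2 log2 units above the series mean, Jchain and Igha kept r = 0.645 and rho = 0.528 (permutation p = 1e-05 for both). In the same set Cd79a and Ms4a1 had r = 0.375 (permutation p = 0.00863, adjusted 0.0187) and rho = 0.0567 (permutation p = 0.546, adjusted 0.596), and Ms4a1 and Igha had r = -0.0108 (permutation p = 0.907). Of the 36 pairs, 19 passed by r and 20 by rho in these tumours.

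**Figure D4:**
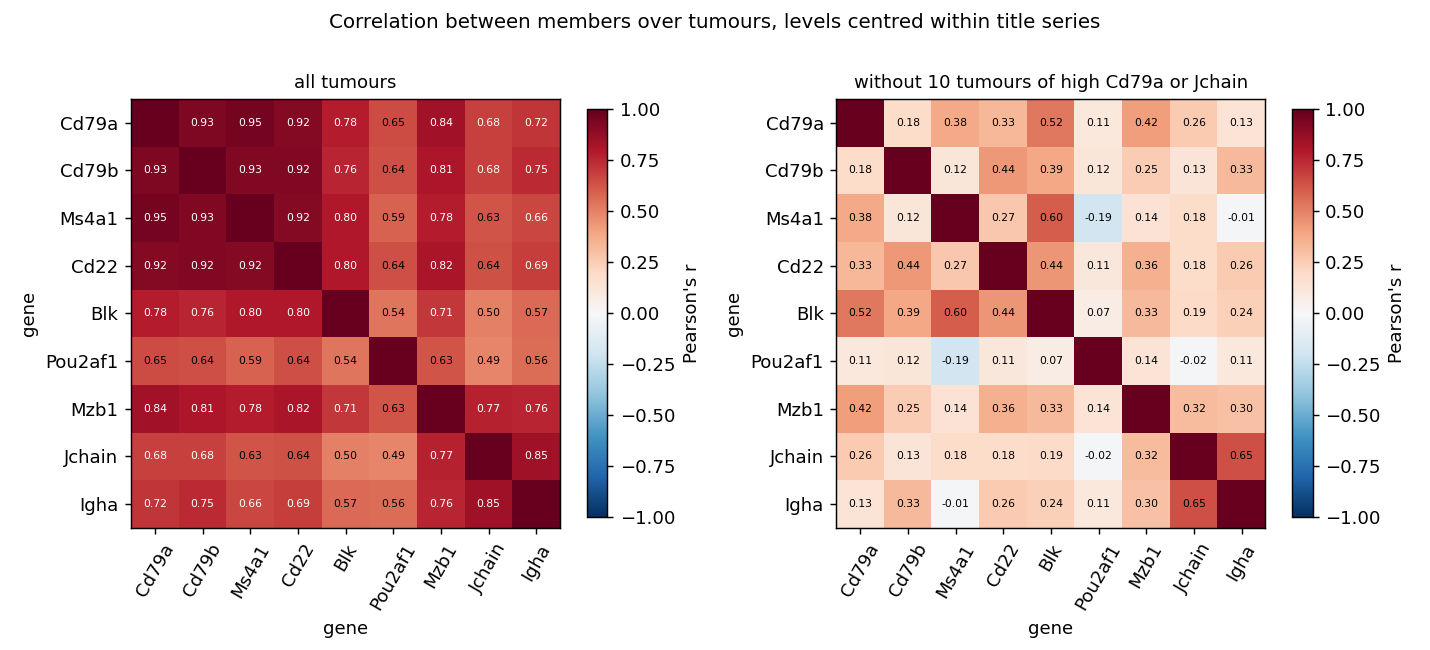
Pearson's r between each pair of the 9 genes over all tumours (left) and without the 10 of high Cd79a or Jchain (right), on levels centred within title series. Jchain with Igha keeps 0.65 on the right, where Cd79a with Ms4a1 has 0.38 and Ms4a1 with Igha has -0.01.

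The B cell genes varied little in numbered titles, and r was compared between the title series. Cd79a and Ms4a1 had r = 0.248 in numbered titles and r = 0.966 in named titles. Jchain and Igha had r = 0.885 in numbered titles and r = 0.862 in named titles. Cd79a and Jchain had r = 0.698 in numbered titles and r = 0.815 in named titles, and the first of these was 0.179 without tumours 14127 and 14052. A permutation of the series labels over 6 such pairs called no difference. The lowest value was for Cd79a and Ms4a1 (permutation p = 0.014, adjusted 0.0841), and 1 of the 6 had an unadjusted p under 0.05.

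The brightness of the array was also set against each gene. Over all tumours no gene correlated with the array median by r after adjustment over 18 relations, with r between 0.06 for Cd79b and 0.27 for Blk. By rho, Cd22 (0.31, permutation adjusted p = 0.00504), Mzb1 (0.26, adjusted 0.0233) and Jchain (0.24, adjusted 0.0263) did. Without the 10 tumours, r was 0.397 for Cd79a, 0.366 for Cd22, 0.439 for Blk and 0.281 for Mzb1, and for these 4 genes the adjusted permutation p lay between 0.00117 and 0.0153. Their values without the 2 arrays of most extreme median were 0.254, 0.328, 0.256 and 0.247. Igha did not pass in either set, with r = 0.0986 and 0.0808. The part of brightness in the correlations among the low tumours was not tested beyond a fit that had the array median as a covariate, in which the 6 pairs of Cd79a, Ms4a1, Jchain and Igha kept their calls.

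Taken 1 at a time as the measure, Cd79a and Jchain each went with all other genes of the 9. All 8 had a slope on Cd79a above 0 past the test, where 6.56% of all genes were called, and all 8 had one on Jchain, where 6.06% were called. Without the 3 tumours of high Cd79a the slope on Jchain passed for Cd79a, Cd79b, Mzb1 and Igha (4 of 8, against 1.95% of all genes), and not for Ms4a1, Cd22, Blk and Pou2af1.

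Whether the 2 kinds of gene separate was asked with 1 model in which each gene had a slope on Jchain and a slope on Cd79a at once, both in log2 units per SD. Igha went with Jchain. Its slope on Jchain was 0.75 ± 0.07 (SE) and its slope on Cd79a 0.29 ± 0.07, and the difference, Jchain minus Cd79a, was 0.45 ± 0.12 (limma adjusted p = 0.0449). Without tumour 14127 the difference was 0.25 and was not called (limma adjusted p = 0.763). It missed the threshold under other settings that kept this tumour too, such as quantile normalization. Without the 10 tumours of high Cd79a or Jchain, 14127 among them, it was 0.39 and was called (limma adjusted p = 6.94e-05). Ms4a1 went with Cd79a. Its slope on Jchain was -0.03 ± 0.03 and its slope on Cd79a 0.67 ± 0.03, a difference of -0.70 ± 0.05 (limma adjusted p = 9.79e-27). Of the 7 genes tested, 1 was called above 0, where 0.0903% of 19936 genes were called, and 4 were called below 0, where 0.617% were called.

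Cd79b, Cd22 and Blk were the other genes below 0. The difference was -0.53 ± 0.05 for Cd79b, -0.34 ± 0.03 for Cd22 and -0.31 ± 0.05 for Blk, with limma adjusted p of 4.66e-14, 5.1e-14 and 3.99e-06. Their slopes on Jchain, with Cd79a in the model, were 0.06, 0.01 and -0.02, and no one of them passed the test. For Pou2af1 and Mzb1 the difference was not called. Pou2af1 had a slope on Cd79a that was called (0.34 ± 0.05, limma adjusted p = 2.77e-07), a slope on Jchain that was not (0.05 ± 0.05, limma adjusted p = 0.868), and a difference of -0.29 with a 95% interval from -0.48 to -0.10 (limma adjusted p = 0.208). Mzb1 had slopes of 0.14 ± 0.02 on Jchain (limma adjusted p = 1.18e-05) and 0.22 ± 0.02 on Cd79a (limma adjusted p = 3.39e-15), and a difference of -0.08 with an interval from -0.16 to -0.001.

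The reverse assignment, with Igha and Ms4a1 as the measures, left Jchain and Cd79a to be tested. Jchain had a slope of 0.88 ± 0.07 on Igha and 0.13 ± 0.07 on Ms4a1, a difference of 0.75 ± 0.13 (limma adjusted p = 3.26e-05). Cd79a had a slope of 0.12 ± 0.03 on Igha and 0.66 ± 0.03 on Ms4a1, a difference of -0.55 ± 0.05 (limma adjusted p = 6.69e-18). Cd79b, Cd22 and Blk were again below 0, so that 1 of 7 genes was called above 0 (0.236% of all genes) and 4 below it (0.828% of all genes). With the 3 tumours left out the difference was -0.13 for Cd79a (limma adjusted p = 0.00119), and Cd79b lost its call (-0.04, limma adjusted p = 0.401).

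The differences were computed again without the tumours of high level. Without the 3 of high Cd79a, with the SD taken anew, the difference was 0.50 ± 0.09 for Igha (limma adjusted p = 0.000335) and -0.23 ± 0.03 for Ms4a1 (limma adjusted p = 3.16e-07), and Cd79b, Cd22 and Blk stayed below 0. Here 3.27% of all genes were called above 0 and 11.7% below. The slope on Jchain itself passed for Igha and Mzb1 (2 of 7, against 1.12% of all genes) and the slope on Cd79a for all but Pou2af1 and Igha (5 of 7, against 24.6% of all genes). Without the 10 tumours the difference was 0.39 for Igha (limma adjusted p = 6.94e-05) and -0.05 for Ms4a1 (limma adjusted p = 0.178). In that set the calls of Cd79b (-0.01, limma adjusted p = 0.794) and Cd22 (-0.03, limma adjusted p = 0.324) were lost too, and Blk alone was called below 0 (-0.10, limma adjusted p = 0.0109), where 14.9% of all genes were. In numbered titles, where Ms4a1 varied by an SD of 0.0955, its difference was 0.00056 (limma adjusted p = 0.998), and in named titles it was -0.71 (limma adjusted p = 3.41e-09). Cd79b, Cd22 and Blk were not called in numbered titles, and of these Blk was not called in named titles either (-0.26, limma adjusted p = 1). For Igha the differences in numbered and named titles were 0.67 and 0.62, and neither was called (limma adjusted p = 0.468 and 1). The slopes take the levels of Cd79a and Jchain as known without error, which array noise near the bottom of the range does not allow for.

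**Figure D5:**
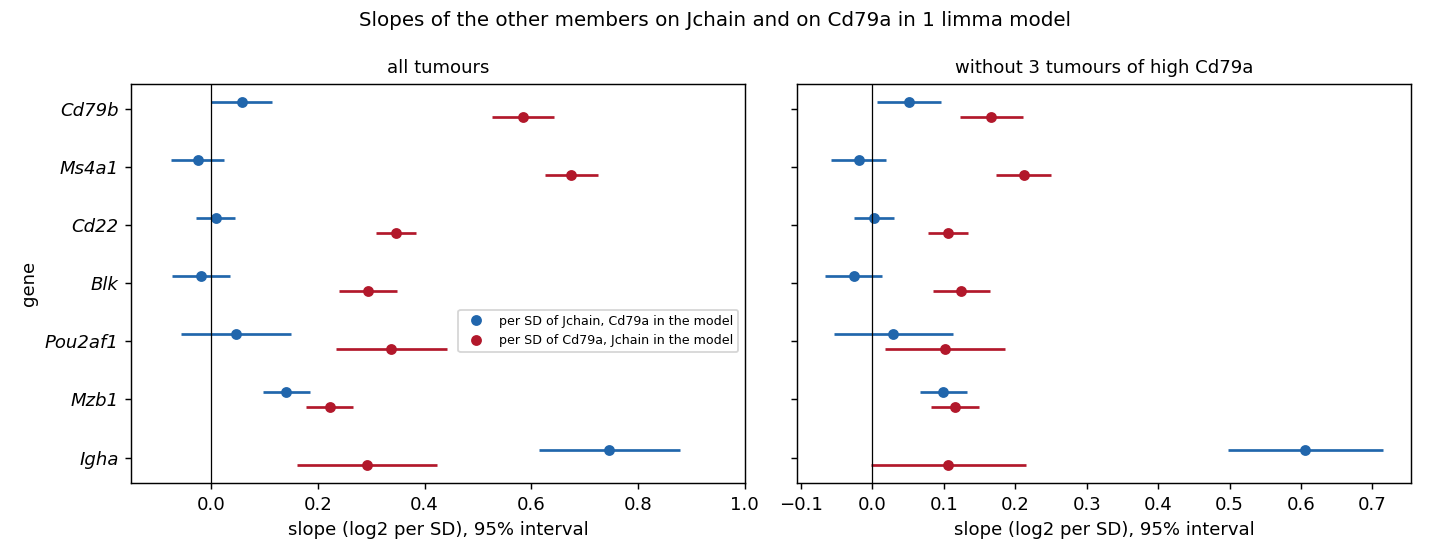
Slopes of the other 7 genes on Jchain (blue, upper) and on Cd79a (red, lower) in 1 limma model, in log2 units per SD of the set shown with 95% intervals, over all tumours (left) and without the 3 tumours of high Cd79a (right). Igha has the larger slope on Jchain and Ms4a1, Cd79b, Cd22 and Blk on Cd79a in both sets, while Mzb1 has both slopes above 0.

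Other genes of the same cells were read from lists. Of 16 further B cell genes measured, 12 were called below 0 in the difference Jchain minus Cd79a, where 0.617% of all genes were, and none above, with a median of -0.30 against -0.01 over all genes. Cr2 had a difference of -0.68, Fcer2a, the low-affinity IgE receptor, one of -0.64, Fcmr, the IgM receptor, one of -0.61, and Bank1, a scaffold of receptor signalling, one of -0.63. Pax5, the factor that keeps B cell identity, had -0.27. The 4 genes not called were Cd72, Ebf1, Blnk and Cd180, with differences between 0.01 and 0.15. Without the 3 tumours, 9 were called below 0 and 1, Cd180, above it, where 11.7% and 3.27% of all genes were.

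Few other genes of plasma cells followed Jchain once Cd79a was in the model. With Jchain alone as the measure, 5 of 10 measured had a called slope (6.06% of all genes), and with Cd79a alone also 5 (6.56%). None of the 10 was called in the difference. With Cd79a in the model 1 had a slope on Jchain past the threshold, where 0.938% of genes were called above 0. It was Slamf7, a surface receptor of plasma cells and other lymphocytes (0.19 ± 0.03, limma adjusted p = 9.25e-05). In that model none of the 10 was called on Jchain without the 10 tumours or with Ptprc as a covariate (0.13% and 0.0652% of all genes). The slopes on Jchain that follow are from that model over all tumours. Irf4, a factor of plasma cell fate, had a slope on Jchain of 0.19 (limma adjusted p = 0.0783). Xbp1, which drives the secretory programme, averaged 12.4 log2 units and Sdc1, which encodes the plasma cell marker CD138, 8.60, and their slopes on Jchain were 0.002 and -0.06. Epithelial cells express both of these genes. Of 17 genes of the secretory pathway none was called on Jchain. Tnfrsf17, the receptor BCMA of plasma cells, had a slope of 0.02 (limma adjusted p = 0.866).

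Several immunoglobulin genes went with Jchain, and some of them with Cd79a as well. Of 2 other heavy chain constant genes measured, both had a slope on Jchain past the threshold with Cd79a in the model, Ighm at 0.18 and Ighg3 at 0.16. On Cd79a, in the same model, Ighm had a slope of 0.17 that was called (limma adjusted p = 1.6e-11). Ighg3 had one of 0.0009 that was not (limma adjusted p = 0.993). Neither gene had a called difference. Of 8 variable genes, taken by their symbols after the data were seen, 5 had a called slope on Jchain and 4 on Cd79a, where 0.938% and 2.44% of all genes were called above 0. The difference was called for 1 of the 8, Igkv10-96 (0.64 ± 0.09, limma adjusted p = 2.36e-08), and had a median of 0.03 over them. Without the 10 tumours it was 0.07 for Igkv10-96 (limma adjusted p = 0.228), and 2 of the 8 had a called slope on Jchain and 7 one on Cd79a, where 0.13% and 38.8% of all genes were called. Among the genes of IgA transport and homing, Ccl28 had a slope on Jchain of 0.46 (limma adjusted p = 0.0322), which was not called without the 10 tumours or with Ptprc as a covariate, and Pigr, the receptor that carries polymeric IgA across epithelium, one of 0.19 (limma adjusted p = 0.501). Itgb7, an integrin chain of gut-homing lymphocytes, went with Cd79a (difference -0.17, limma adjusted p = 0.00431), a call that was lost without the 3 tumours (-0.06, limma adjusted p = 0.131).

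Among T and NK cell genes several went with Cd79a. Of 12 measured, 8 were called below 0 in the difference, where 0.617% of all genes were, and none above, among them Ccr7 (-0.34), Cd4 (-0.25) and Cd8a (-0.25). With Cd79a in the model, 4 of the 12 had a called slope on Jchain, where 0.938% of all genes were called above 0. These were Cd3g (0.27), Cd3e (0.12), Il2rb (0.23) and Nkg7 (0.28), while Gzmb, at 0.15, was not called (limma adjusted p = 0.0801). Il2rb and Nkg7, which natural killer and activated T cells express, had differences of 0.13 and 0.12 that were not called. When the 3 tumours were left out these differences were 0.20 and 0.22 and both were called (limma adjusted p = 0.00485 and 0.0261), so that 2 of the 12 were called above 0 and 5 below, where 3.27% and 11.7% of all genes were. Of 10 macrophage genes none was called in the difference, with a median of 0.25. With Cd79a in the model 4 had a called slope on Jchain (Csf1r, Adgre1, C1qa and Mpeg1). None of the 10 had one without the 10 tumours or with Ptprc as a covariate, where 0.13% and 0.0652% of all genes were called. Without the 3 tumours, 7 of the 10 were called above 0 in the difference, where 3.27% of all genes were. Of 9 luminal epithelial, 9 fibroblast and 10 proliferation genes, none was called in the difference.

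Over all genes, 18 were called above 0 in the difference (0.0903%) and 0.617% below, and 17 of those above and 62 of those below had the same sign in both title series. Among the genes of the same sign, the largest above 0 beside Igkv10-96 and Igha included the chemokine gene Ccl8 (0.68), the interferon-induced chemokine gene Cxcl9 (0.58), Ms4a7 (0.53), which macrophages express, and Tlr8 (0.40), a receptor for single-stranded RNA. Nnat, Scgb2b24, Glrb and Gpr65 were the others, at 0.65, 0.56, 0.43 and 0.41. Below 0 the largest among those of the same sign in both title series were Cr2, Fcer2a, Fcmr, Spib (-0.47), Cxcr5 (-0.39), Tnfrsf13c (-0.38), Lef1 (-0.36), Cd22, H2-Ob (-0.33) and Fcrl1 (-0.32). Without the 3 tumours, 17 of the 18 genes above 0 and 68 of those below were called again, beside many more genes (652 above 0 and 2325 below).

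By likeness alone and with the 9 genes themselves left out, the genes closest to Cd79a over all tumours were Bank1 (r = 0.961), Fcer2a, Cr2, Fcmr, Ccl19, Cxcr5, Spib, Lat, Ccr7 and Septin1 (r = 0.90). Those closest to Jchain, again outside the 9, were Igkv10-96 (r = 0.892), Ighm (0.816), Igkv6-20, Cd3g, Cd3e, Gimap3, Rnase6, Il2rb, Ptprc (0.707) and P2ry10. Bank1, Fcer2a, Fcmr and Cr2 stayed the closest to Cd79a without the 3 tumours, with r between 0.72 and 0.78. With Ptprc, the gene of the leukocyte antigen CD45, as a covariate, the difference was 0.46 for Igha (limma adjusted p = 0.0324) and -0.70 for Ms4a1 (limma adjusted p = 5.93e-27).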

How the data were processed

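The deposited values are log2 expression values, 1 per probeset. According to the submitters' processing notes the authors used RMA, which corrects background, equalises the arrays' distributions by quantiles and summarises probes. Its version is not given there, and the genome build is not given in the sources used here. Of 35556 probesets, 21789 had 1 gene symbol in the platform table, 1621 had several and 12146 were unnamed here. For the 999 genes with several probesets, the one of highest mean was used. The 6 arrays with the suffix r were left out. There is no read depth for arrays, and precision is limited by how many there are.

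Fits used limma 3.58.1 (lmFit, eBayes with trend) in R 4.3.3 with the title series as a term, on the whole gene table, and p values were adjusted over it (Benjamini-Hochberg, threshold 0.05). Slopes are per SD of the centred level. Correlations used 100000 permutations of tumours within title series (numpy 2.4.6, scipy 1.17.1), 2-sided. The fits were tested on simulated data. The members, gene lists and tests were chosen with earlier results of these data known. Genes were named if they were members, were on a list, were among the 10 largest differences of a direction whose sign both title series shared, or were among the 10 most like Cd79a or Jchain. Igkv10-96, Ighm and other tumour-level genes and tumours 14094, 14322, 14262 and 14127 were singled out after their values were seen. No 2 arrays were identical (highest correlation 0.994). P values measure the spread between animals of 1 cross.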

Additional observations from a re-analysis of the deposited data

How the results depend on the processing

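The positive correlations of Cd79a, Ms4a1, Jchain and Igha kept their direction and call in 96 alternatives, missed the threshold in 5 and turned sign in 1. In numbered titles only, r was 0.248 for Cd79a and Ms4a1, 0.250 for Ms4a1 and Jchain and 0.294 for Ms4a1 and Igha, none of them called. Without the 10 tumours of high Cd79a or Jchain, r was 0.133 for Cd79a and Igha, 0.181 for Ms4a1 and Jchain and -0.0108 for Ms4a1 and Igha. The alternatives that leave out the 3 or the 10 tumours, or single tumours, were chosen after seeing the data, and the SD that slopes refer to was taken anew in each. Cd79a, Ms4a1 and Jchain lay near the bottom of the array's range in most tumours, which limits what can be read among low tumours. The cause of the changes was not tested.

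The difference Jchain minus Cd79a for Igha stayed above 0 but missed the threshold without the 4 arrays of lowest mean correlation (0.40), under quantile normalization (0.45), with the mean of all probesets (0.38), with genes above the median level only (0.45), in numbered titles (0.67) and in named titles (0.62). Leaving out 1 of 4 tumours at a time gave 0.25 (without 14127) to 0.51. For Ms4a1 it was 0.00056 in numbered titles and -0.047 without the 10 tumours. In numbered titles it was also above 0 for Cd79b (0.0040) and Mzb1 (0.052). In the difference Igha minus Ms4a1, Jchain had 0.20 in named titles, not called. Cd79a had 0.11 in numbered titles and -0.049 without the 10 tumours. Cd79b had 0.12 in numbered titles and 0.041 without the 10, neither called. Pou2af1 had 0.12 in numbered titles, 0.036 in named titles, 0.12 without the 3 tumours, 0.13 without the 10, and -0.046 to 0.026 leaving out single tumours. Mzb1, at -0.023 over all tumours, had 0.19 in numbered titles and 0.036 without the 4 arrays. It had 0.059 without the 3 tumours, 0.028 without the 10, and -0.084 to 0.026 leaving out single tumours. None of these values of Pou2af1 and Mzb1 was called. The slope on Jchain was -0.012 for Blk in numbered titles and -0.0093 for Pou2af1 without the 10 tumours.

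Between title series, 69.6% of genes were higher in numbered and 5.72% in named titles. Quantile normalization gave 27.3% and 33.0%, genes above the median level 65.8% and 7.25%, and the array median as a covariate 36.9% and 24.4%. Under quantile normalization the difference was below 0 for Cd79a (-0.10), Cd22 (-0.022), Blk (-0.16), Mzb1 (-0.15) and Jchain (-0.028), and with the array median as a covariate it was -0.47, -0.14, -0.65, -0.33 and -0.38 for the same genes. For Ms4a1 it was 0.011 without the 4 arrays, 0.092 without the 3 tumours and 0.13 without the 10, and for Cd79b 0.074 without the 3 and 0.096 without the 10.

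The share of genes called moved most, which with genes above the median level is also a share of fewer genes. Slopes on Cd79a above 0 made up 6.56%, and 2.34% without the 4 arrays, 3.94% among genes above the median level, 2.78% with Ptprc as a covariate, 0.0853% in numbered titles, 23.5% without the 3 tumours, 40.6% without the 10 and 2.57% (without 14094) to 9.40% leaving out single tumours. Slopes on Jchain above 0 made up 6.06%, and 3.53% without the 4 arrays, 4.80% among genes above the median level, 0.211% with Ptprc, 0.527% in numbered titles, 1.95% without the 3 tumours and 3.37% (without 14094) to 6.50% leaving out single tumours. For Jchain minus Cd79a, 0.0903% lay above 0 and 0.617% below. These shares were 0.010% and 0.0702% among genes above the median level, 0.00502% and 0.0652% in named titles, 3.27% and 11.7% without the 3 tumours and 4.24% and 14.9% without the 10. In numbered titles limma called 0 genes above and 0 below, with 3.08% and 5.07% at an unadjusted p under 0.05. Ptprc as a covariate gave 0.286% above, and leaving out the 4 arrays 0.361% below. Single tumours gave 0.0451% (without 14094 or 14127) to 0.311% (without 14262) above and 0.326% (without 14094; 0.366% without 14127) to 0.938% (without 14262) below. For Igha minus Ms4a1, 0.236% lay above 0 and 0.828% below. These were 0.0301% and 0.12% among genes above the median level, 0.512% and 1.81% with the array median as a covariate, 0.928% and 1.36% with Ptprc, 5.21% and 19.6% without the 3 tumours and 10.1% and 30.3% without the 10. In numbered titles limma called 0.0903% above and 0 below, with 6.40% below at an unadjusted p under 0.05. Named titles gave 0.466% above, leaving out the 4 arrays 0.316% below, and quantile normalization 0.472% below. Single tumours gave 0.211% to 1.18% above and 1.01% to 2.41% below, the highest without 14127, with 0.597% and 1.89% without 14262 and 0.421% above without 14322, where 1.48% lay below.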

Other observations

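The 6 arrays with the suffix r, which entered no comparison, had array medians between 5.36 and 5.58 log2 units, below all others. On these arrays Igha ranged from 4.92 to 7.38 with a median of 5.63, and Jchain from 3.99 to 4.98 with a median of 4.80. Cd79a ranged from 3.05 to 4.76 with a median of 3.32, and Ms4a1 from 3.27 to 4.88 with a median of 3.44.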
